A study of Mus musculus with 2 samples.

Results

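The type I interferon antiviral genes are 35 listed symbols whose products sense viral nucleic acid, relay the interferon signal or block viral replication. They were taken as the rows of both count matrices that carry a listed symbol. Of the 35, 33 had a row among 32285 features, and Mx1 and Mx2 were not analysed here. The libraries are droplet single-cell RNA of liver tumours from mice, 1 from the group shCtrl (labelled WT for genotype) and 1 from shSrsf10, the group with a short hairpin RNA against the splicing factor Srsf10. The series title asks how Srsf10 bears on tumour immunity. The labels give no strain, sex, age, number of animals or promoter for the hairpin, and do not say whether animals were pooled. They also conflict on the method, since the design names a 10x 5' kit and a sort with an unstated gate, while the sample protocol names a 3' kit and low-speed centrifugation of liver cells. With 1 library per group, no spread between replicates is known and no p-value is given.

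Type I interferons are secreted proteins that bind a receptor of the chains Ifnar1 and Ifnar2 on nearly every cell. The receptor kinases Jak1 and Tyk2 then phosphorylate Stat2, which enters the nucleus with Irf9 in the complex ISGF3, and this complex binds the interferon-stimulated response element in the promoters of antiviral genes. Interferon gamma, made by T and NK cells, signals through another receptor and raises some of the same genes. In the liver and in tumours these genes serve as a readout of interferon exposure.

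UMIs (unique molecular identifiers, each standing for 1 captured RNA molecule) were summed per library in 4 classes of barcodes. Tumour barcodes had at least 5 UMIs of Krt8 and Krt18 and 0 of Ptprc, T barcodes at least 2 UMIs of the Cd3 chains, neutrophil barcodes at least 1% of UMIs from S100a8 and S100a9, and macrophage barcodes at least 3 UMIs of the C1q chains. A barcode that met more than 1 rule was left out. The tumour class held 6283 shCtrl and 3652 shSrsf10 barcodes, with a median of 17146 and 26088.5 UMIs each. The T class held 326 and 1857 barcodes at a median of 1918.5 and 2452 UMIs, the neutrophil class 142 and 285 at 682 and 798, and the macrophage class 382 and 125 at 1950 and 3094. Levels are CPM, the UMIs of a gene scaled to a class total of 1000000. A log2 ratio is shSrsf10 over shCtrl, with an exact interval at 95% in brackets that covers counting error only. A gene was measured in a class with at least 20 UMIs over both libraries, and was called higher or lower at 1.5-fold, a log2 ratio of 0.585.

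All 8 epithelial markers (such as Epcam, Afp and Alb) were detected in the tumour class of each library. Detection does not set the classes apart, since the lists hold the genes of the rules. The T, neutrophil and macrophage lists were also detected in full in the tumour class. The T list summed to 6754 CPM in the shCtrl T class and 8473 in shSrsf10, against 3.23 and 10.2 in the tumour class. The macrophage list summed to 14764 and 15198 CPM in its class, against 12.3 and 8.97 in the tumour class. The epithelial list summed to 10884 and 8756 CPM in the tumour class, against 1490 and 734 in the T class. Tumour barcodes held 45.9 CPM of Srsf10, the targeted gene, in shCtrl and 19.6 in shSrsf10, a log2 ratio of -1.23 (-1.30 to -1.16). In the T class it was at 56.3 against 77.1 CPM (log2 ratio -0.45), short of the fold used here. Classes also differed in make-up. Their part in the results below was not tested except where stated. The Kupffer cell list (Clec4f, Cd5l, Vsig4, Timd4) summed to 1030 CPM in the shCtrl macrophage class and 136.9 in shSrsf10, the fibroblast list to 9.09 and 70.6 CPM in the tumour class, and the monocyte list (Ly6c2, Ccr2, Vcan, Chil3) to 136 and 1322 CPM in the T class, with 3 and 4 of its 4 genes detected. The libraries shared 67 barcode sequences.

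The response element gave 6 promoters to show beside the values, 5 that hold it and 1 that does not, since their genes differ in how they moved. RefSeq promoters on GRCm38.p6, from 250 bases before to 50 after the start, were found for 25 of the member genes. The element was searched as GAAA, any 2 bases and GAAA again, on both strands, and overlapping matches were kept. They stood in the promoters of 12 of these 25 genes, 48%, against 3.44% of all 32851 promoters of this length. The gamma-activated site TTCNNNGAA stood in 3 of the 25, 12%, against 8.30% of all promoters. The sequences run 5' to 3' on the gene's strand, and capitals mark the element, which reads TTTC, any 2 bases and TTTC where it lies on the other strand. Isg15 lies at chr4:156200769-156201068 (minus strand), Ifit1 at chr19:34640639-34640938 (plus), Ifit3 at chr19:34583279-34583578 (plus), Bst2 at chr8:71537423-71537722 (minus), Oas3 at chr5:120777610-120777909 (minus) and Oasl2 at chr5:114896684-114896983 (plus).
Isg15: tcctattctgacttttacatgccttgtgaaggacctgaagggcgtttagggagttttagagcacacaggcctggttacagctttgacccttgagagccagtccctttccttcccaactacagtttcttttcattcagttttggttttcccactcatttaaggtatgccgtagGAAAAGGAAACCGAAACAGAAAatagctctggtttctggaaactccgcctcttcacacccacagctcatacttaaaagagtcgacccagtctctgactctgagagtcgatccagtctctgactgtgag
Ifit1: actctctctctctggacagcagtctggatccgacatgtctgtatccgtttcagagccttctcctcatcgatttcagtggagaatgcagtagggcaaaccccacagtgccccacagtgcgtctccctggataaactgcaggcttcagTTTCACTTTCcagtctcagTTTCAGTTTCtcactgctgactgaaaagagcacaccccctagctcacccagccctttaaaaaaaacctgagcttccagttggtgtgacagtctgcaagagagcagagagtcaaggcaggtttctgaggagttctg
Ifit3: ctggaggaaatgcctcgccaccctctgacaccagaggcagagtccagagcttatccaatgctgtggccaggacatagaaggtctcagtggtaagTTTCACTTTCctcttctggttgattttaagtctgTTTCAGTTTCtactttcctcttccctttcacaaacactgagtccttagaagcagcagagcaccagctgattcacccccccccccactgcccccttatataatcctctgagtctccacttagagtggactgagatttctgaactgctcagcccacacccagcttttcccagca
Bst2: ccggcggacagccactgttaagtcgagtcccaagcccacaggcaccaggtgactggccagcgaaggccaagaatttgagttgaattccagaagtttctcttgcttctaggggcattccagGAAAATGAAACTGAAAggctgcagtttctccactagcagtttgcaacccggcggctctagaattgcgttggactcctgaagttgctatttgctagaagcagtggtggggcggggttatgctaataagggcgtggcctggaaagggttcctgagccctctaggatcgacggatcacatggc
Oas3: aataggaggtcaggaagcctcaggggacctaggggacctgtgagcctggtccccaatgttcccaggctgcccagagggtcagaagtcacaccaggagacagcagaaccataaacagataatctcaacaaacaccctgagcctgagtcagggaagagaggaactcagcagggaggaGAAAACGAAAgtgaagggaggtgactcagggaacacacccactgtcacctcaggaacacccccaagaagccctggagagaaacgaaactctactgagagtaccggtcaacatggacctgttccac
Oasl2: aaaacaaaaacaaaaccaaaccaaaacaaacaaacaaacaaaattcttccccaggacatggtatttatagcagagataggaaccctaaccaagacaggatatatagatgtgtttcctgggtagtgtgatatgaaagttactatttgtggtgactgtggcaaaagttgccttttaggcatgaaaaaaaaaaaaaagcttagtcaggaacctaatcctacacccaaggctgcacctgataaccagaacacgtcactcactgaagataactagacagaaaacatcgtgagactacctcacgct
Isg15 held 3 overlapping copies, Ifit1, Ifit3 and Bst2 held 2 each, Oas3 held 1, and Oasl2 held none in this window. A match describes these letters only. In the tumour class, 6 of the 15 members called higher that have a promoter here held the element, 4 of the 8 between the folds did, and so did the 1 called lower, Ifit1.

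In tumour barcodes most of the antiviral genes were higher in the shSrsf10 library. Of the 33 members with a row, 31 were measured, and 20 of them were higher, 1 was lower and 10 lay between the folds. Over all 14628 genes measured in the class, 8.7% were higher and 13% lower. The median log2 ratio of the members was 0.83, against -0.07 over all measured genes. Because a gene can reach 20 UMIs through the library where it is high, the count was also taken over the 29 members with 20 UMIs in shCtrl alone, of which 18 were higher and 1 lower, against 5.92% and 13% of the genes with that depth. Ifit3 and Oas2 had too few UMIs, with 5 and 6 UMIs of Ifit3 and 2 and 5 of Oas2 in shCtrl and shSrsf10.

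**Figure D1:**
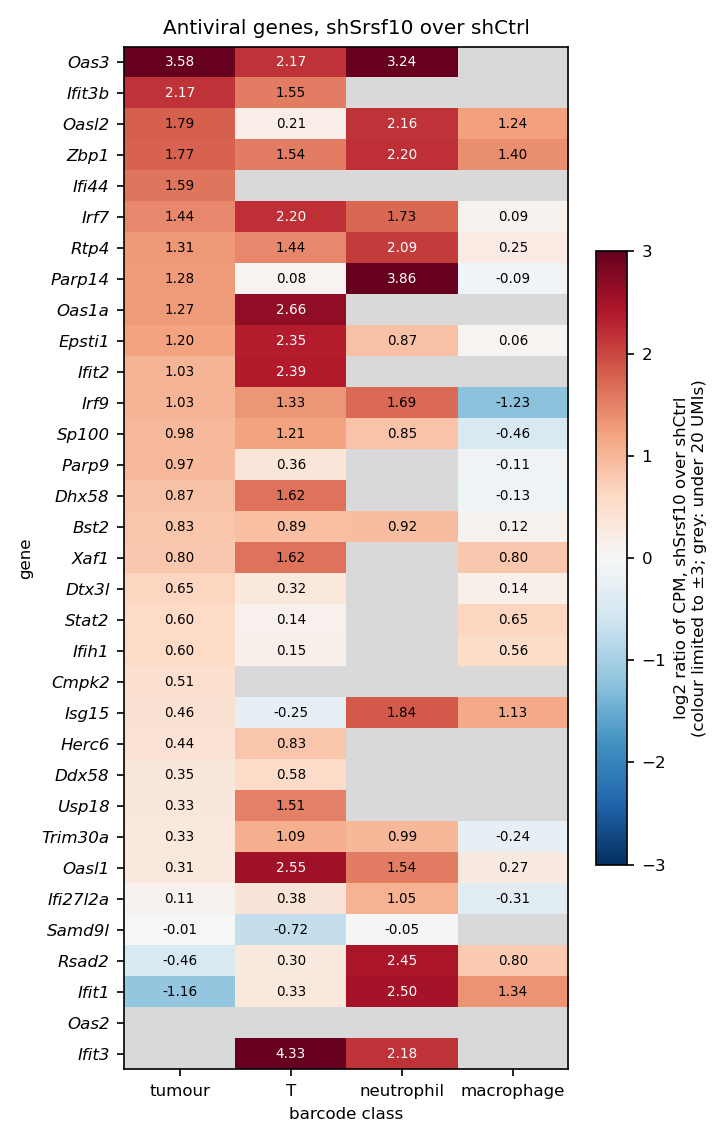
Log2 ratio of CPM, shSrsf10 over shCtrl, for each antiviral gene (rows) in the 4 barcode classes (columns). Rows run from the highest to the lowest tumour ratio, with genes not measured in tumour barcodes last. Cells without a value had under 20 UMIs over both libraries. The tumour, T and neutrophil columns hold 20, 18 and 17 genes past the 1.5-fold limit on the higher side, and the macrophage column holds 7.

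Among the sensors, Zbp1 had the highest ratio. Zbp1 binds left-handed nucleic acid and can start necroptosis, and its level was 17.3 CPM in shCtrl tumour barcodes (2095 UMIs) and 59.1 CPM in shSrsf10 (6380 UMIs), a log2 ratio of 1.77 (1.70 to 1.85). Ifih1, which encodes the RNA sensor MDA5, had 1.27 and 1.93 CPM, a log2 ratio of 0.60 that lies just past the fold. Dhx58 (LGP2), a regulator of RNA sensing, had 0.223 and 0.408 CPM, a log2 ratio of 0.87. Ddx58, which encodes RIG-I, had 2.94 and 3.74 CPM and stayed inside the fold at 0.35 (0.14 to 0.56). So 3 of the 4 sensors were higher, and the RIG-I gene was the 1 between.

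All 3 transcription factors of the list were higher in tumour barcodes. Irf7, which drives the interferon alpha genes, was at 1.88 CPM in shCtrl and 5.12 in shSrsf10, a log2 ratio of 1.44 (1.22 to 1.67). Irf9, the DNA-binding part of ISGF3, was at 2.90 and 5.92 CPM, a log2 ratio of 1.03 (0.84 to 1.22). Stat2 was at 5.66 and 8.59 CPM, a log2 ratio of 0.60 (0.46 to 0.75), close to the fold.

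The ISG15 system did not pass the fold in tumour barcodes. Isg15 encodes a ubiquitin-like modifier, and its level was 19.0 CPM in shCtrl and 26.1 in shSrsf10, a log2 ratio of 0.46 (0.38 to 0.54). Usp18, which removes Isg15 and restrains the interferon receptor, was at 26.3 and 33.04 CPM, a log2 ratio of 0.33 (0.26 to 0.40). Herc6, the ligase that attaches Isg15 in mice, was at 1.68 and 2.28 CPM, a log2 ratio of 0.44. All 3 were higher in shSrsf10 by less than 1.5-fold, with intervals above 0.

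The IFIT family, whose proteins bind foreign RNA, was split. Ifit1 was the 1 member called lower, at 0.973 CPM in shCtrl (118 UMIs in 63 barcodes) and 0.436 in shSrsf10 (47 UMIs in 30 barcodes), a log2 ratio of -1.16 (-1.68 to -0.66). Ifit2 was higher, at 0.181 and 0.371 CPM, a log2 ratio of 1.03 (0.25 to 1.85). Ifit3b was higher on 7 and 28 UMIs, a log2 ratio of 2.17 (0.94 to 3.61). Its transcript matches that of Ifit3 at 98.0% of 1697 aligned bases, so the counting could have split or lost reads of this pair, and both values are uncertain. Ifit1 was lower in each of the 14 alternatives that gave it a value, with a log2 ratio between -2.34 and -0.87.

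The oligoadenylate synthetases sense double-stranded RNA and make the messenger that switches on RNase L. Oasl2, a relative of this family, was at 1.25 CPM in shCtrl and 4.31 in shSrsf10, a log2 ratio of 1.79 (1.52 to 2.07). Oas1a was at 0.693 and 1.67 CPM, a log2 ratio of 1.27. Oas3 had 3 UMIs in shCtrl and 32 in shSrsf10, a log2 ratio of 3.58 (1.91 to 5.93), the highest of the list on the fewest shCtrl counts. Oasl1, which in mice restrains translation of Irf7, was at 24.0 and 29.8 CPM and stayed between at 0.31. Thus 3 of the 4 measured genes of the family were higher.

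The viperin pair stayed inside the fold and on opposite sides of 0. Rsad2 encodes viperin, which makes a chain-terminating nucleotide, and was at 3.37 CPM in shCtrl and 2.45 in shSrsf10, a log2 ratio of -0.46 (-0.69 to -0.24). Its neighbour Cmpk2, a nucleotide kinase, was at 0.643 and 0.917 CPM, a log2 ratio of 0.51. Rsad2 and Cmpk2 lie side by side at chr12:26442746-26456452 and chr12:26469204-26479837 on GRCm38, on opposite strands.

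The ADP-ribosylation genes were all higher. Parp14, a mono-ADP-ribosyltransferase, was at 2.70 CPM in shCtrl and 6.53 in shSrsf10, a log2 ratio of 1.28 (1.09 to 1.47). Parp9 was at 2.40 and 4.71 CPM (log2 ratio 0.97), and its partner Dtx3l, a ubiquitin ligase, was at 2.24 and 3.53 CPM (0.65). Parp9 (chr16:35938470-35972605, plus strand) and Dtx3l (chr16:35926511-35939151, minus strand) overlap at their ends, and whether the counting used strand is not given in the sources used here.

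Of the 9 membrane and other effectors, 6 were higher and 3 lay between. Bst2 (tetherin), which holds budding virus at the cell surface, was at 242 CPM in shCtrl and 429.8 in shSrsf10, a log2 ratio of 0.83 (0.81 to 0.85). Ifi44 was at 0.396 and 1.20 CPM, a log2 ratio of 1.59 (1.11 to 2.10). Rtp4 (log2 ratio 1.31), Epsti1 (1.20), Sp100 (0.98), a nuclear body protein, and Xaf1 (0.80), which promotes apoptosis, were also higher. Ifi27l2a was abundant and almost level, at 152 and 164 CPM, a log2 ratio of 0.11 (0.08 to 0.14). Trim30a, at 0.33, and Samd9l, at 3.65 and 3.63 CPM and a log2 ratio of -0.01, were the other two between the folds.

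**Figure D2:**
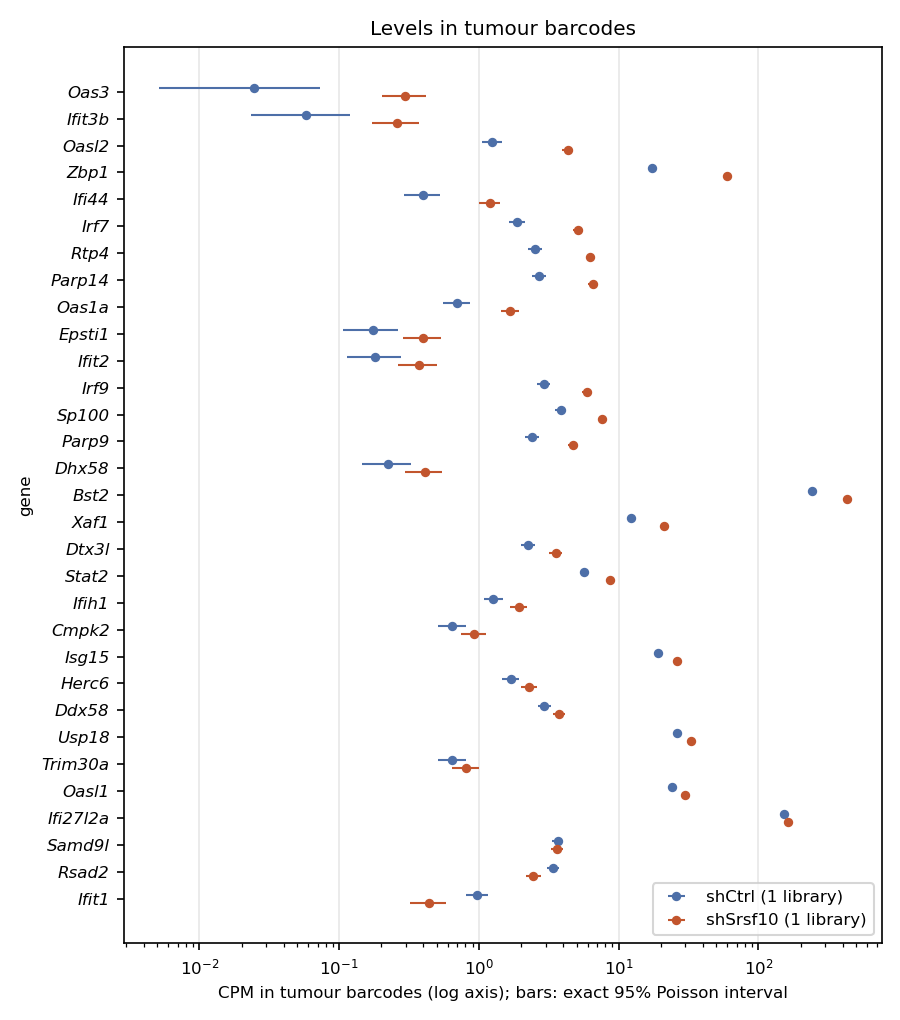
CPM of each measured antiviral gene in tumour barcodes on a log axis, shCtrl and shSrsf10 as points with exact Poisson intervals at 95%, 1 library each. The shSrsf10 point lies above shCtrl for 28 of 31 genes, and the intervals of the ratio for Ifit1 and Rsad2 lie below 0.

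RNA from other cell types reached the tumour barcodes in small amounts. The share of their RNA put to T cells, from markers not used to define the classes, was 0.0696% in shCtrl and 0.150% in shSrsf10, that put to macrophages 0.441% and 0.518%, and that put to neutrophils 0.0271% and 0.0160%. The level these shares would carry came to a median of 6.08% and 5.22% of the members' own level. It reached 20% or more in at least 1 library for 7 of the 31 measured members, Ifit1, Ifit2, Oas3, Irf7, Epsti1, Dhx58 and Trim30a. For Epsti1 it exceeded the level itself, at 321% and 310%, so its tumour value cannot be told apart from RNA of other cells. For Oas3 it was 209% in shCtrl and 25.5% in shSrsf10, so its shCtrl value cannot be told apart from RNA of other cells either. For Ifit1 it was 6.87% and 44.9%, and for Irf7 31.2% and 17.03%. The T list summed to 3.23 and 10.2 CPM in tumour barcodes, with all 8 genes detected in each library.

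The spread over tumour barcodes was compared after each was thinned to 5000 UMIs, which left out 437 shCtrl and 175 shSrsf10 barcodes. The median barcode then held 2 UMIs of the antiviral genes in shCtrl and 4 in shSrsf10, and the barcode at the 90th percentile held 5 and 8. Barcodes with none made up 12.2% and 4.803%. The 10% of barcodes with the most member UMIs held 27.3% and 25.3% of all of them. Both the median and the 90th percentile were higher in shSrsf10, and fewer barcodes held none. These counts are sums over the members, and Bst2 and Ifi27l2a made up most of them. In tumour barcodes Bst2 was at 242 and 429.8 CPM and Ifi27l2a at 152 and 164, of a summed 535 and 836.

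**Figure D3:**
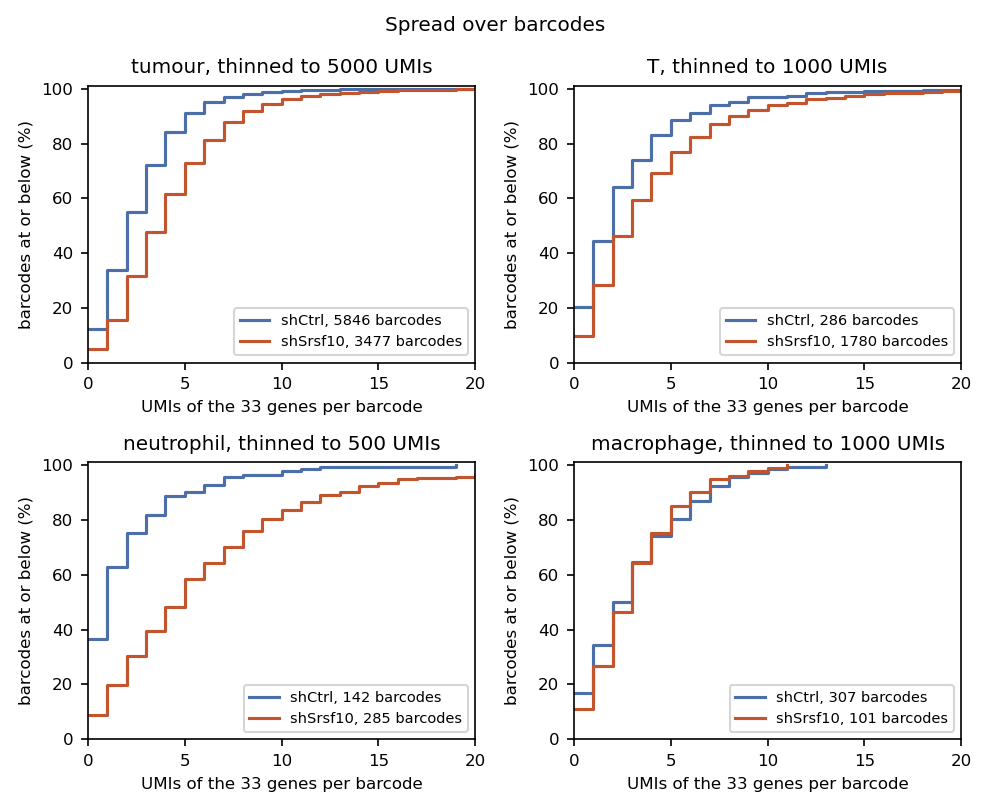
Percent of barcodes (y axis) that hold at most the number of antiviral UMIs on the x axis, after thinning to 1 common depth in each class, as a line for shCtrl and a line for shSrsf10. In neutrophils thinned to 500 UMIs the median is 1 in shCtrl and 5 in shSrsf10, and in macrophages thinned to 1000 it is 2 and 3. The counts are sums over the members, so the most abundant members weigh most.

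In T barcodes, 30 members were measured, of which 18 were higher in shSrsf10, 1 was lower and 11 lay between. Over all 9931 genes measured there, 12.4% were higher and 26% lower. The median log2 ratio was 1.15 for the members and -0.14 over all genes. Many members rested on few shCtrl counts, and of the 13 members with 20 UMIs in shCtrl alone 6 were higher and 1 was lower, with a median of 0.38, against 6.68% and 23.8% of the genes with that depth. Oas2, Cmpk2 and Ifi44 had too few UMIs.

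Epsti1, an interferon-induced gene named for its response in epithelial and stromal culture, was at 81.8 CPM in shCtrl T barcodes (88 UMIs) and 418 CPM in shSrsf10 (2926 UMIs), a log2 ratio of 2.35 (2.05 to 2.68). After thinning to 1000 UMIs, 9.79% (6.605 to 13.8) of shCtrl T barcodes and 39.7% (37.4 to 42.0) of shSrsf10 T barcodes held a UMI of it. In tumour barcodes at the same 1000 UMIs the shares were 0.0480% and 0.0551%, lower than in T barcodes. No class was known to lack the gene, so these shares are set beside the T shares and not taken as the level of free RNA. The median depths before thinning were 1918.5 and 2452 UMIs in T barcodes and 17146 and 26088.5 in tumour barcodes.

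Irf7 was at 19.5 CPM in shCtrl T barcodes and 89.7 in shSrsf10, a log2 ratio of 2.20 (1.58 to 2.90). Irf9 was at 13.0 and 32.7 CPM, a log2 ratio of 1.33, while Stat2 was at 12.1 and 13.3 CPM, a log2 ratio of 0.14 (-0.71 to 1.10). Of the 3 transcription factors, Stat2 was the 1 that stayed between in T barcodes. Zbp1 was at 57.6 and 167 CPM, a log2 ratio of 1.54 (1.17 to 1.93). Sp100 was at 65.0 and 151 CPM (log2 ratio 1.21) and Bst2 at 121 and 224 CPM (0.89).

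The 4 largest ratios of the T class came from genes with 1 UMI in shCtrl. Ifit3 had 1 and 131 UMIs, a log2 ratio of 4.33 (1.83 to 9.65). Oas1a had 1 and 41 UMIs (2.66), and Oasl1 had 1 and 38 (2.55). RNA put to other classes reached at least 20% of the T level for 6 of the 30 measured members, in 1 library or both. They were Rsad2, Oasl1, Oasl2, Oas1a, Usp18 and Bst2. For Oasl1 it was 435% in shCtrl and 78.3% in shSrsf10, for Usp18 69.5% and 21.9%, and for Bst2 32.7% and 23.2%. Ifit2 had 1 and 34 UMIs (log2 ratio 2.39, -0.19 to 7.73), an interval that includes 0. The share of T barcode RNA put to tumour cells was 14.3% in shCtrl and 9.92% in shSrsf10.

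Other T values lay near or inside the fold. Isg15 was at 297 CPM in shCtrl and 249 in shSrsf10, a log2 ratio of -0.25 (-0.43 to -0.08), and Ifit1 at 27.9 and 34.99 CPM, a log2 ratio of 0.33 (-0.22 to 0.93). Ifi27l2a was at 1054 and 1374 CPM (0.38) and Parp14 at 37.2 and 39.3 CPM (0.08). Usp18 was higher on 6 and 111 UMIs, a log2 ratio of 1.51 (0.34 to 2.98). Between the folds also lay Ddx58 (0.58), Rsad2 (0.30), Oasl2 (0.21) and Ifih1 (0.15). Samd9l, a brake on cell growth, was the 1 gene called lower, at 18.6 and 11.3 CPM, a log2 ratio of -0.72 (-1.44 to 0.07) whose interval includes 0. After centring on the median of all genes 0 members were called lower, against 20.1% of all genes.

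T barcodes differed in make-up between the libraries. CD8 barcodes, with a Cd8a or Cd8b1 UMI and none of Cd4, made up 31.6% of the shCtrl T class and 56.1% of the shSrsf10 class, and CD4 barcodes 31.0% and 18.0%. In CD8 barcodes 18 of 26 measured members were higher and 1 lower, against 20.7% and 22.4% of 8468 genes. The shSrsf10 subset held 10.2 times as many UMIs, so 20 of the 26 reached the minimum through it, and of the 6 with 20 UMIs in shCtrl alone (Isg15, Bst2, Ifi27l2a, Zbp1, Epsti1 and Sp100) 6 were higher, against 9.65% higher and 21% lower of 2207 genes. In CD4 barcodes 12 of 21 were higher and 1 lower, against 16.3% and 25.7% of 6754 genes, and of the 5 with 20 UMIs in shCtrl alone 3 were higher and 1 lower, against 8.04% and 23.9% of 2451 genes. The median log2 ratio was 0.96 in CD8 and 0.64 in CD4 barcodes. In T barcodes with no Mki67 or Top2a UMI, genes of dividing cells, 13 of 28 measured members were higher and 0 lower, with a median of 0.50, against 16.7% and 24.7% of 8390 genes. In T barcodes with neither a Cd4 nor a Cd8 UMI, 12 of 18 were higher and 0 lower, against 21% and 20.3% of 5808 genes. In these last subsets shSrsf10 held 7.58 and 4.06 times as many UMIs, so 20 of the 28 and 14 of the 18 reached the minimum through it. With no Mki67 or Top2a UMI, 8 members had 20 UMIs in shCtrl alone, of which 4 were higher and 0 lower. With neither Cd4 nor Cd8, 4 members did, of which 2 were higher and 0 lower. The share of all genes at that depth is not given for these subsets.

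Isg15 went opposite ways in these subsets. In CD8 barcodes it was at 106 CPM in shCtrl and 199 in shSrsf10, a log2 ratio of 0.90 (0.45 to 1.39). In CD4 barcodes it was at 461 and 301 CPM, a log2 ratio of -0.61 (-0.86 to -0.36). Epsti1 was higher in both, at 90.7 and 521 CPM in CD8 barcodes (log2 ratio 2.52) and 69.7 and 235 CPM in CD4 barcodes (1.76). Irf7 (1.86 and 1.39), Zbp1 (1.39 and 1.51) and Bst2 (1.43 and 1.09) were also higher in CD8 and CD4 barcodes. Whether the subsets differ was not tested, with 1 library per group.

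**Figure D4:**
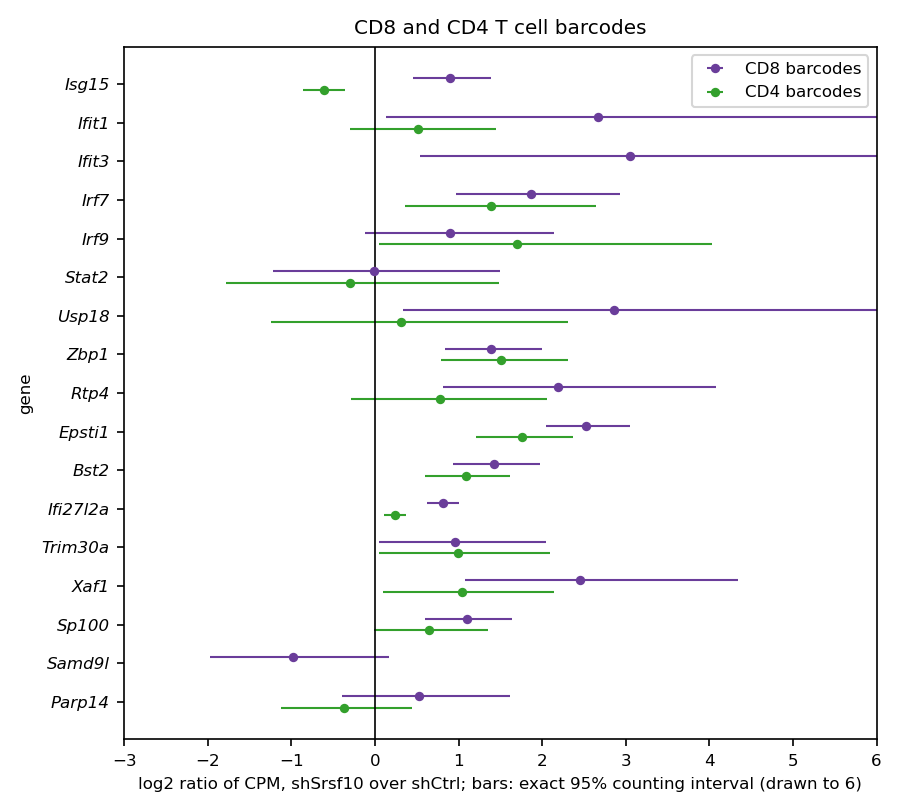
Log2 ratio of CPM, shSrsf10 over shCtrl, in CD8 and CD4 barcodes of the T class for 17 antiviral genes (a point is missing where a subset had under 20 UMIs or 0 in 1 library), with exact intervals at 95% for counting error. Isg15 is at 0.90 in CD8 and -0.61 in CD4 barcodes, and Epsti1 is at 2.52 and 1.76.

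Neutrophil barcodes gave the highest median ratio. Of 18 members measured, 17 were higher in shSrsf10 and 0 were lower, against 30.4% higher and 18.6% lower of 2070 genes. The median log2 ratio was 1.79 for the members and 0.19 over all genes. The class was shallow, 15 members had too few UMIs, and 2 members reached 20 UMIs in shCtrl alone, Isg15 and Ifi27l2a, both higher, against 22.9% higher and 23.9% lower of the 803 genes with that depth. The other members' values in this class rest on 0 to 15 shCtrl UMIs.

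Isg15 was at 1196 CPM in shCtrl neutrophil barcodes (154 UMIs) and 4291 in shSrsf10 (1141 UMIs), a log2 ratio of 1.84 (1.60 to 2.10). At 500 UMIs, 34.5% (26.7 to 42.9) of shCtrl and 71.2% (65.6 to 76.4) of shSrsf10 neutrophil barcodes held a UMI of it. In tumour barcodes thinned to 1000 UMIs, more than here, the shares were 1.92% and 2.48%. Ifi27l2a was at 1033 and 2140 CPM, a log2 ratio of 1.05 (0.78 to 1.33).

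Rsad2, inside the fold in tumour and T barcodes, was at 116 CPM in shCtrl neutrophils (15 UMIs) and 636 in shSrsf10 (169 UMIs), a log2 ratio of 2.45 (1.69 to 3.32). Zbp1 was at 109 and 500.2 CPM (2.20), Oasl2 at 93.2 and 417 (2.16) and Irf7 at 93.2 and 308 (1.73). Every one of these genes was lower in shCtrl. The highest ratios again rested on few shCtrl counts. Parp14 had 1 and 30 UMIs (3.86, 1.27 to 9.21), Oas3 had 2 and 39 (3.24), and Ifit1 had 3 and 35 (2.50, 0.83 to 4.84). Ifit3 had 0 UMIs in shCtrl and 28 in shSrsf10. With 3 counts put in place of the 0 it was 4.52-fold higher, a log2 ratio of 2.18. The interval from the counts as they stand starts at a log2 ratio of 1.78. Irf9 had 3 and 20 UMIs (1.69), with an interval from -0.06 to 4.08. The lowest ratios were those of Epsti1 (0.87), Sp100 (0.85), Bst2 (0.92) and Samd9l (-0.05), and Samd9l was the 1 gene between the folds. Stat2, Usp18, Ddx58 and Ifih1 had too few UMIs.

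RNA put to tumour cells made up 21.1% of the shCtrl and 12.7% of the shSrsf10 neutrophil RNA, and that put to macrophages 7.18% and 13.5%. For 3 of the 18 measured members, Oasl1, Bst2 and Parp14, the level so carried reached 20% of their own in 1 library or both, and for Bst2 it was 106% and 82.6%. The neutrophil list summed to 185786 CPM in shCtrl and 124223 in shSrsf10.

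In macrophage barcodes a smaller part of the antiviral genes passed the fold. Of 21 measured, 7 were higher, 1 was lower and 13 lay between, against 9.22% higher and 24.6% lower of 5868 genes. The median log2 ratio was 0.14 for the members and -0.10 over all genes. Of the 18 members with 20 UMIs in shCtrl alone, 5 were higher and 1 was lower, against 6.31% and 25.9% of 4805 genes. Isg15 was at 301 and 659 CPM, a log2 ratio of 1.13 (0.89 to 1.37), and Zbp1 at 89.0 and 235 CPM, a log2 ratio of 1.40 (0.98 to 1.83). Oasl2 had 14 and 16 UMIs, a log2 ratio of 1.24 (0.11 to 2.39). Ifit1 (1.34), Xaf1 (0.80), Rsad2 (0.80) and Stat2 (0.65) were also past the fold, and the intervals of Ifit1, Rsad2 and Stat2 include 0. For Ifit1, 63.6% of its 11 shSrsf10 UMIs came from 1 barcode.

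Several genes called higher in T and neutrophil barcodes lay between the folds in macrophages. Irf7 was at 124 and 133 CPM, a log2 ratio of 0.09 (-0.37 to 0.55), Epsti1 at 107 and 111 CPM (0.06), and Bst2 at 535 and 579.8 CPM (0.12, -0.10 to 0.33). Parp14, Ifi27l2a and Ifih1 lay between the folds in macrophages and in T barcodes as well. Parp14 was at 68.3 and 64.2 CPM (-0.09) in macrophages. Ifi27l2a was at 1167 and 941 CPM, a log2 ratio of -0.31 (-0.47 to -0.15), and Ifih1 had 14 and 10 UMIs (0.56). Sp100 (-0.46) and Trim30a (-0.24) were among the lowest. Irf9 was the 1 gene called lower, on 29 UMIs in 27 shCtrl barcodes and 6 UMIs in 6 shSrsf10 barcodes, a log2 ratio of -1.23 (-2.78 to 0.07). Ifit3, Usp18 and Ddx58 had too few UMIs here. The Kupffer list stood at 1030 CPM in the shCtrl macrophage class and 136.9 in shSrsf10. In the 275 shCtrl and 120 shSrsf10 macrophage barcodes with no UMI of it, 9 of 19 measured members were higher and 1 lower, against 9.96% and 21.6% of the genes measured there.

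The classes also differed in base level. The members summed to 535 CPM in shCtrl tumour barcodes and 836 in shSrsf10, to 1965 and 3148 in T, to 3439 and 10658 in neutrophil and to 2934 and 3385 in macrophage barcodes. A few abundant members made up most of these sums. In tumour barcodes they were Bst2 and Ifi27l2a. In neutrophils they were Isg15 (1196 and 4291 CPM) and Ifi27l2a (1033 and 2140 CPM). The tumour class held the lowest level of 22 members in shCtrl and 27 in shSrsf10, and the highest of 1, Usp18, in each. Neutrophil barcodes held the highest level of 16 members in shCtrl and 25 in shSrsf10, and macrophage barcodes of 14 and 6. Members with few UMIs count among these, and where the top class had to hold 20 UMIs of the gene, neutrophils led for 1 member in shCtrl and 15 in shSrsf10, and macrophages for 11 and 2. These counts compare 1 gene across classes, never levels between genes.

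The pathway around these genes showed little RNA of type I interferon itself. Over all kept barcodes, the 17 type I genes with a row held 16 UMIs in shCtrl and 24 in shSrsf10, with 13 of the 17 genes at 0 in both. Ifnb1 had 7 UMIs in 1 barcode and 10 UMIs in 4 barcodes, and Ifnk 8 and 13 UMIs. Ifng, the type II interferon, had 183 UMIs in 78 barcodes and 2500 UMIs in 633 barcodes. Within the T class its log2 ratio was 1.13. In tumour barcodes the receptor genes Ifnar1 (9.91 and 9.24 CPM, log2 ratio -0.10) and Ifnar2 (61.5 and 76.1 CPM, 0.31) lay between the folds. Of the 6 receptor genes measured there, 0 were higher and 1 was lower, and of the 6 sensing genes measured, 0 were past the fold. Over all genes measured there, 8.7% were higher and 13% lower.

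A set of genes known for their response to interferon gamma (Cxcl9, Gbp2, Gbp5, Ciita, Irf1, Cd274, Socs1, Gbp2b, Gbp3 and Iigp1) was set beside the antiviral genes. In tumour barcodes 9 of its 9 measured genes were higher, against 8.7% of all genes. Their median log2 ratio was 2.72, against 0.83 for the members. In T barcodes 5 of 8 were higher and 1 lower (median 0.77), against 12.4% and 26% of all genes. In neutrophils 3 of 3 were higher (2.04), against 30.4% of all genes, and in macrophages 9 of 10 (0.84), against 9.22%.

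Tumour barcodes thinned to 5000 UMIs were then split by whether they held a UMI of this set, a split chosen after values had been seen. Barcodes with the set made up 19.2% of shCtrl (1122) and 51.8% of shSrsf10 (1801). Within shCtrl, 15 of 23 measured members were higher in barcodes with the set than without it and 0 lower, against 6.81% and 3.19% of 11398 genes, with a median log2 difference of 0.80. Within shSrsf10, 15 of 24 were higher and 0 lower, against 6.94% and 2.55% of 10747 genes, with a median of 0.72. In each library, then, most measured members had a higher level in barcodes that also held the gamma set.

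Between libraries, members differed on each side of the split. After thinning, a barcode can hold no UMI of the set although its cell expresses it. Before thinning, the set held 6557 UMIs in shCtrl tumour barcodes and 23451 in shSrsf10. The split therefore does not equalise the set between libraries. Whether members differ between libraries at an equal level of the set was not tested. In barcodes without the set 10 of 23 members were higher in shSrsf10 and 1 lower, against 5.82% and 17.5% of 11503 genes, with a median log2 ratio of 0.28. In barcodes with the set 11 of 24 were higher and 1 lower, against 6.11% and 17.6% of 10656 genes, with a median of 0.57. Zbp1 was at 15.7 CPM in shCtrl and 45.2 in shSrsf10 without the set (log2 ratio 1.53), and at 34.2 and 81.8 CPM with it (1.26). Bst2 was at 219 and 371 CPM without the set and 292 and 489 with it. Rsad2 was at 3.34 and 1.91 CPM without it (-0.81, -1.68 to -0.02) and at 5.88 and 2.998 with it (-0.97, -1.76 to -0.19), lower in shSrsf10 on both sides.

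**Figure D5:**
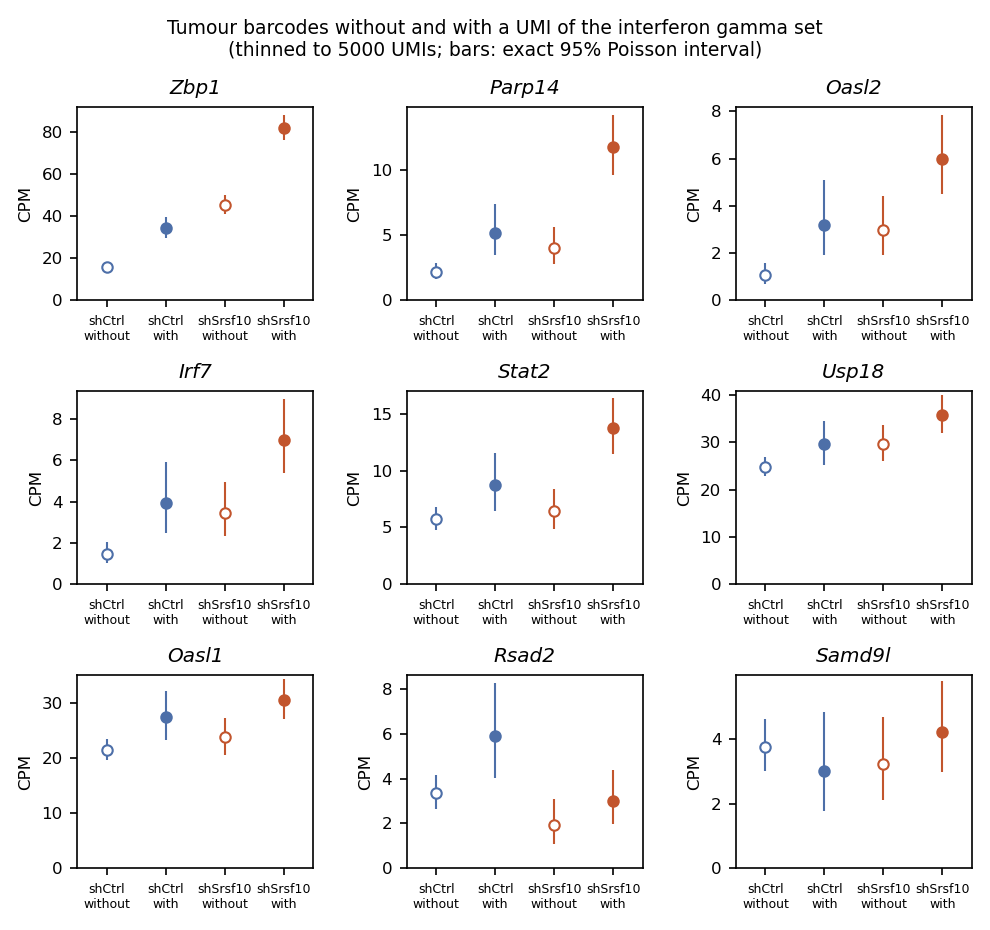
CPM (linear axis from 0) of 9 antiviral genes in tumour barcodes without (open points) and with (filled points) a UMI of the interferon gamma set, in shCtrl and shSrsf10, after thinning to 5000 UMIs, with exact Poisson intervals at 95%. Zbp1 goes from 15.7 to 34.2 in shCtrl and from 45.2 to 81.8 in shSrsf10.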

How the data were processed

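Raw UMI counts were deposited as a sparse matrix per library, which the authors made with Cell Ranger 6.1.0 on genome build mm10, per the submitters' processing notes. Barcodes are 17 characters long and the lowest total per barcode is 500 UMIs, so an unstated filter before deposition is possible. The shCtrl library held 9920 barcodes and 143327661 UMIs, the shSrsf10 library 7553 and 136419902.

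Barcodes with at least 200 genes, 500 UMIs and at most 20% mitochondrial UMIs were kept. Those with the highest Scrublet scores (scanpy 1.11.5) were removed at 0.8% per 1000 barcodes, 787 and 456, since the automatic threshold marked 0 and 194. This left 8766 shCtrl and 7030 shSrsf10 barcodes, of which 1593 and 1031 met no class rule and 40 and 80 met more than 1. Where several rows shared a symbol, the row with the most UMIs was used and 40 others were dropped. Counts were summed over the barcodes of a class in each library and scaled to CPM. Intervals at 95% are exact Poisson for a CPM, exact conditional binomial for a ratio (scipy 1.17.1) and exact Clopper-Pearson for a share. They cover counting error only, and were tested on simulated data. For a gene with 0 UMIs in 1 library, up to 3 counts were put in place of the 0. RNA put to other classes was the share of marker UMIs outside the class rules, times the level in the source class.

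The member genes and gene lists were chosen with earlier results of these data known, so no list is independent evidence. In each class, values are given for the 4 highest and 4 lowest ratios and for 16 set genes (15 with a row), with others beside them for their role. Promoters are RefSeq entries on GRCm38.p6, and gene coordinates are GENCODE vM21. The counts over members with 20 UMIs in shCtrl alone or in the top class were added after values were seen. Alternatives changed doublet removal, the mitochondrial limit, class rules, the UMI minimum, scaling, depth, fold and subsets. With 1 library per group no replicate could be left out, and no test between groups was possible.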

Additional observations from a re-analysis of the deposited data

Results flagged for a closer look

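Ifit1 and Irf9 passed the 1.5-fold limit in opposite directions in different barcode classes, and Isg15 did so in subsets of the T class. With 1 library per group these differences between classes were not tested. Ifit1 had a log2 ratio of -1.16 in tumour, 2.50 in neutrophil and 1.34 in macrophage barcodes. The neutrophil value rests on 3 shCtrl UMIs, and the macrophage interval includes 0. Irf9 had log2 ratios of 1.03 in tumour, 1.33 in T and 1.69 in neutrophil barcodes and -1.23 in macrophage barcodes. The macrophage and neutrophil intervals of Irf9 include 0. Isg15 had a log2 ratio of 0.90 in CD8 and -0.61 in CD4 barcodes, and neither interval includes 0.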

How the results depend on the processing

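No paired analysis was possible because each group had 1 library. At 2-fold 12 tumour members (4.38% of all genes) and 4 macrophage members (2.95%) were higher, and 0 T members were lower (11.6%). With barcodes split by the interferon gamma set, 10 of 23 measured members were higher in tumour barcodes without it and 11 of 24 with it. The shares of all genes were 5.82% and 6.11%. Tumour barcodes with no Mki67 or Top2a UMI had 2 of 29 measured members lower, against 13.1% of all genes. In T barcodes the lower count was 0 after centring on the median of all genes and 0 with no Mki67 or Top2a UMI. The shares of all genes were 20.1% and 24.7%. The T lower count was 0 with neither Cd4 nor Cd8 and 2 as a mean over barcodes, against 20.3% and 30.6%. In neutrophils 27 of 32 were higher with no UMI minimum, 11 of 11 at 50 UMIs and 7 of 7 in barcodes of at least 1000 UMIs, against 13.5%, 32.8% and 46.2% of all genes. In macrophages 11 of 33 were higher with no minimum and 4 of 13 at 50 UMIs, against 14.8% and 7.66%. The macrophage lower count was 3 with no minimum and 0 at 50 UMIs, against 21.4% and 16.96% of all genes. It was 2 under stricter class rules and 2 as a mean over barcodes, against 23.03% and 33.06%. Of 1379 values of single members under alternatives, 1275 stayed within the interval of the reported value. In 42 the sign was the other one, and for 40 of these the reported value lay inside the fold. The other two were past it. Ifih1 in tumour barcodes went from 0.60 to -0.020 with the interferon gamma set present, and Herc6 in T barcodes from 0.83 to -0.21 in CD8 barcodes. For both the cause was not tested. Over the alternatives, Isg15 in T barcodes ranged from -0.61 to 0.90. Depth limits the neutrophil class most, where 15 members had under 20 UMIs.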
